A study of Mus musculus
Mus spretus with 18 samples.

Results

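The CELF proteins (CUGBP Elav-like family members) are RNA-binding proteins encoded by 6 genes, Celf1 to Celf6, and all 6 were followed here. The members were chosen by gene symbol: 6 of the 38924 genes in the expression table, and every skipped exon (SE) event of these genes in the splicing tables, 75 of 125200 events. The 75 events describe 45 exons that differ in start or end, because an exon is listed again when its flanking exons differ.

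Each CELF protein carries RNA recognition motifs that bind GU-rich RNA. In the nucleus the proteins include or skip alternative exons, often against the muscleblind (Mbnl) proteins, and in the cytoplasm they act on the stability and translation of mRNA. Celf1 and Celf2 are known from many tissues and from myotonic dystrophy, whereas Celf3, Celf4, Celf5 and Celf6 are known mainly from the nervous system.

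The libraries were RNA sequencing of F1 hybrids of a female C57BL/6J mouse, a laboratory strain, and a male SPRET/EiJ mouse, an inbred strain of Mus spretus, so that every cell carried both alleles in one environment. Cerebral cortex, heart, kidney, lung, spleen and liver were taken from 2 female hybrids aged 8 weeks, and embryonic stem cells (ESC) of the same cross were 2 separate clones; each tissue had 2 replicates, 14 libraries in all. F1 fibroblasts had been treated for 4 h with 0.1 µM pladienolide B (PladB), a compound that binds the SF3B1 subunit of the spliceosome, or with DMSO, 2 replicates each. The liver data came from an earlier study of the same animals, so that study cannot be told apart from tissue in comparisons with liver. The liver labels spell the first strain C57BL/7J and C57BL/8J. No label says that the fibroblast replicates were separate cultures, so p-values there measure only the spread between these samples.

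The 18 libraries held between 46558287 and 151755602 junction reads over all SE events. The marker list of each tissue was at least 2.80 times as high in its own libraries as in those of any other tissue or cell type, and all neuronal markers used (Snap25, Syt1, Rbfox3, Slc17a7 and Gad1) were above 1 TPM in cortex. Cortex, heart and kidney had been sequenced with longer reads, trimmed to the length of the other libraries, so that read length cannot be told apart from tissue between these 3 and the others sequenced for the same study.

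All 6 Celf genes had their highest expression in cortex, and outside cortex Celf1 was the most abundant member in every tissue. Expression was measured in TPM, transcripts per fixed total of transcripts, a unit that corrects for length and allows genes to be compared. The summed TPM of the 6 genes was 775 and 816 in the 2 cortex libraries, 127 and 119 in ESC, 79.1 and 77.8 in spleen, 41.5 and 43.1 in heart, 40.1 and 38.1 in lung, 37.8 and 38.2 in kidney, and 22.5 and 23.6 in liver. Cortex lay apart from all other tissues, and liver was lowest. In these bulk samples, fewer cells of a type and less RNA per cell cannot be told apart.

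**Figure D1:**
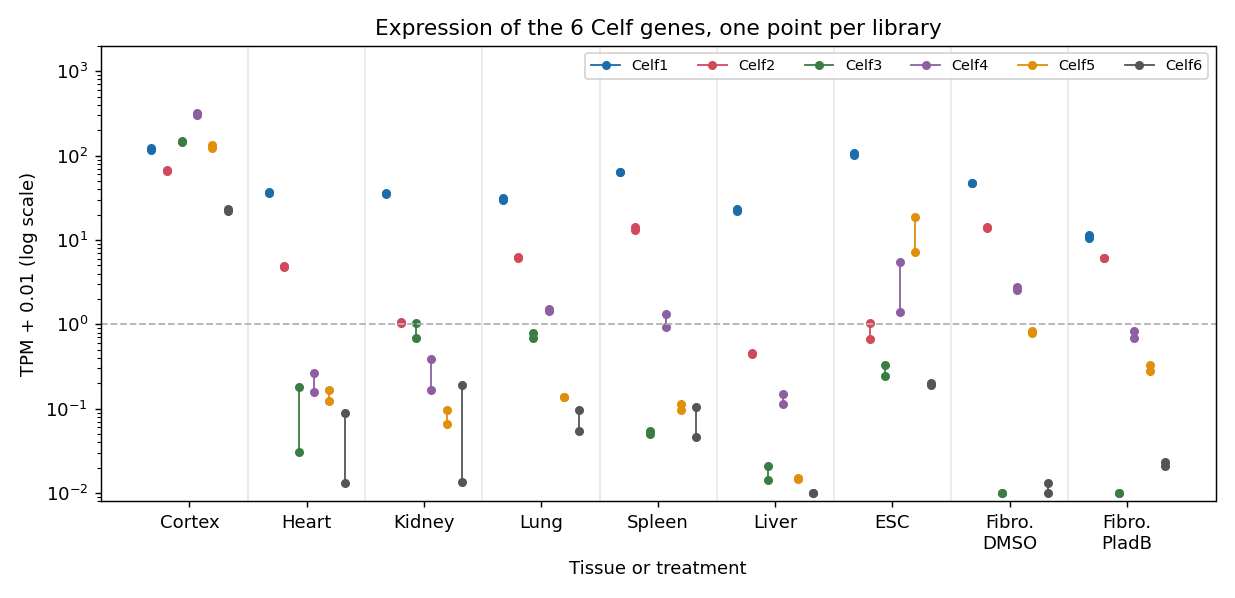
TPM plus 0.01 (log axis) of each Celf gene in each library; a line joins the 2 replicates of a group and the dashed line marks 1 TPM. All 6 genes lie above 20 TPM in cortex, and Celf1 is the only one above 20 TPM in the other tissues.

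Celf1, which regulates splicing in the nucleus and binds GU-rich elements of short-lived mRNAs in the cytoplasm, was expressed in every tissue. Its TPM was 116 and 122 in cortex, 102 and 108 in ESC, 63.2 and 63.5 in spleen, 36.5 and 37.4 in heart, 35.9 and 35.5 in kidney, 31.5 and 29.5 in lung, and 21.9 and 23.1 in liver. The replicates of a tissue did not overlap with those of its neighbour at any step of this order. All steps passed the test (limma, adjusted p between 3.82e-06 and 0.0385) except heart against kidney (log2 difference 0.05, adjusted p = 0.57).

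Celf2, a paralog with roles in heart, brain and lymphocytes, had a steeper order. Its TPM was 65.7 and 68.0 in cortex, 14.4 and 13.2 in spleen, 6.11 and 6.28 in lung, 4.72 and 4.97 in heart, 1.01 and 1.07 in kidney, 0.66 and 1.02 in ESC, and 0.45 and 0.44 in liver. Spleen and cortex stood above the rest, and lung against heart (adjusted p = 0.11) and kidney against ESC (adjusted p = 0.14) were the neighbours that did not differ beyond their spread. ESC therefore had the second-highest level of Celf1 and one of the lowest levels of Celf2.

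The other 4 members were above 20 TPM in cortex alone. Celf4, which in neurons binds mRNAs of synaptic proteins and whose loss causes seizures in mice, was the most abundant Celf mRNA in cortex with 302 and 318 TPM. Outside cortex it reached 5.42 and 1.40 in the 2 ESC clones, 1.52 and 1.45 in lung and 1.30 and 0.93 in spleen, and was at most 0.38 in heart, kidney and liver. Celf3 had 146 and 151 TPM in cortex and at most 1.03 elsewhere.

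Celf5 had 124 and 135 TPM in cortex, 18.7 and 7.23 in the ESC clones and at most 0.16 in the other tissues, so that ESC was the one other tissue with a clear level (ESC against heart, the next tissue, log2 difference 5.65, adjusted p = 2.24e-07). Both Celf4 and Celf5 were higher in the first ESC clone, 3.87-fold and 2.59-fold, while Celf1 differed 1.06-fold between the clones; the summed neuronal markers were between 2.69 and 4.30 TPM in the clones, and their part in this was not tested. Celf6, whose loss alters social vocal behaviour in mice, was the least abundant member in cortex with 22.0 and 23.6 TPM. It was at most 0.19 TPM in every other tissue and listed at 0 in both liver libraries.

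The test across the 7 tissues passed for 6 of 6 Celf genes, against 99.5% of all genes tested, so that this count is near the background. The test of cortex against each of the other 6 tissues separated them more: 6 of 6 Celf genes were higher in cortex in all 6 comparisons, against 19.4% of all genes. Among the tissues sequenced with longer reads alone, cortex exceeded heart and kidney for all 6 genes, against 55.6% and 46% of all genes. Without the cortex libraries Celf3 and Celf6 would not have met the filter of at least 1 TPM in 2 libraries. They were kept through the tissue where they are high, so that their part in these counts is not support. The size of the difference varied widely: the log2 difference from the next tissue was 0.18 for Celf1 (± 0.07 SE), 2.27 for Celf2 (± 0.18), 3.46 for Celf5 (± 0.36), 6.33 for Celf6 (± 0.43), 6.75 for Celf4 (± 0.53) and 7.30 for Celf3 (± 0.34).

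The small Celf1 difference depended on the scale. The median gene was lower in every other tissue than in cortex, by 0.29 in lung up to 2.29 in liver on the log2 scale. With each library centred on its median gene, Celf2 to Celf6 stayed above every other tissue, but Celf1 was lower in cortex than in ESC (log2 difference −0.28, adjusted p = 0.026) and did not differ from liver beyond the spread (log2 difference 0.11, adjusted p = 0.31). Under this scale 12.7% of all genes were higher in cortex than in all other tissues. On the original scale, the Celf1 difference between cortex and ESC also missed the threshold when 1 library was left out in 9 of 14 cases. Both cortex libraries and the first ESC clone were among the 9. Over the 14 cases the log2 difference lay between 0.13 and 0.22.

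The makeup of the family differed accordingly. In cortex Celf4 gave 38.9% of the summed Celf TPM, Celf3 18.6%, Celf5 16.2%, Celf1 15.0%, Celf2 8.40% and Celf6 2.87%. In the other 6 tissues Celf1 gave between 78.0% (lung) and 97.5% (liver). Celf2 came second in lung (15.8%), spleen (17.6%), heart (11.5%), kidney (2.74%) and liver (1.92%), whereas in ESC the second member was Celf5 (10.5%). DMSO-treated fibroblasts had 73.1% Celf1 and 21.6% Celf2.

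**Figure D2:**
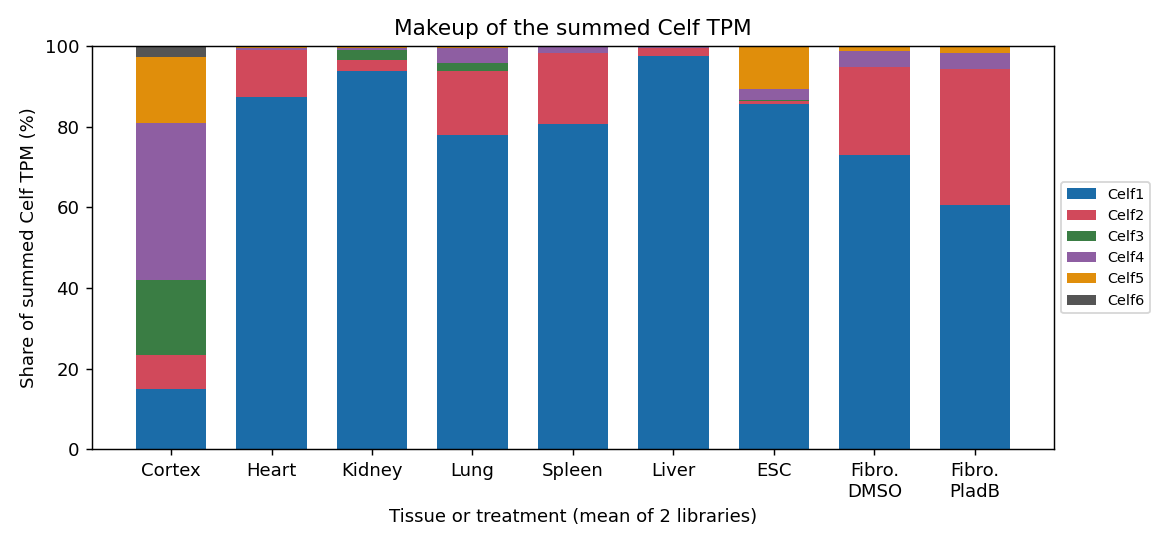
Share of each Celf gene in the summed Celf TPM (%, stacked from 0 to 100, mean of 2 libraries) in the 7 tissues and in fibroblasts with DMSO or PladB. Celf1 gives 15.0% in cortex and 78.0% to 97.5% in the other tissues.

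Over the 7 tissue means of log2(TPM + 0.1), which share one cortex value far from the rest, the most similar patterns within the family were those of Celf4 and Celf6 (Pearson's r = 0.963) and of Celf3 and Celf6 (r = 0.955), followed by Celf4 and Celf5 (r = 0.913) and Celf3 and Celf4 (r = 0.911). Celf2 and Celf5 were least alike (r = 0.495). Of all genes kept by the filter, those most like Celf6 were Jakmip3, Otof and Grin1, the last encoding an NMDA receptor subunit (r = 0.998 for each). Those most like Celf3 were Ptprn2, Dzank1 and Gm15494 (r = 0.996 for each), and those most like Celf5 were Pnma2, Tph2 and Gareml (r = 0.998 for each). Celf4 was most like Zbtb20, Mapk9 and Tmem74 (r between 0.991 and 0.993), Celf2 most like Megf10, Gba2 and Sepw1 (r between 0.982 and 0.991), and Celf1 most like Fam178a, Spocd1 and Il20ra (r between 0.990 and 0.993). These correlations are descriptions over 7 points.

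Splicing of the Celf genes themselves was measured by the percent spliced in (PSI), the share of inclusion among the inclusion and skipping forms of an event, from 0 to 1. Overlapping forms count as different exons, as the 111-nt and 114-nt exons of Celf1 and the 84-nt and a 144-nt exon of Celf4 do. A 3938-nt form of Celf2 spans its 159-nt and 80-nt exons. Each form is set against skipping alone, so that overlapping forms can both lie near 1. Events with at least 20 junction reads in both replicates were used; 72 of the 75 events passed in 1 or more groups, covering all 45 exons. Of these exons, read through the event with the most reads, 38 had a mean PSI above 0.9 in every group with enough reads and 3 were below 0.1 in every group. The 3 rarely included exons were a 53-nt exon of Celf1, a 41-nt exon of Celf2 and a 63-nt exon of Celf6. The other event of the 53-nt exon, with the 152-nt exon as its downstream neighbour, reached a mean of 0.134 in spleen, 0.100 in heart and 0.15 in PladB-treated fibroblasts. No other event of the exons in these classes fell outside the class of its exon. The other 4 exons had a mean PSI between 0.1 and 0.9 in at least 1 group: a 152-nt exon of Celf1, an 80-nt and a 144-nt exon of Celf2, and a 144-nt exon of Celf4.

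By gene, 50 events had enough reads in cortex, where all 6 genes were expressed, and between 5 and 16 in the other tissues, where nearly all came from Celf1 and Celf2. Celf3, Celf4 and Celf6 could be read in cortex alone. Exon lengths were a multiple of 3 nt for 27 of the 45 exons, 24 of the 38 included exons, 2 of the 4 variable exons and 1 of the 3 rarely included exons.

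Several exon lengths recurred among the members: 7 lengths were found in 2 or more Celf genes, covering 19 exons. An 83-nt exon was listed in Celf1, Celf2, Celf4 and Celf5, with a PSI of at least 0.976 in each, and a 49-nt exon in Celf1, Celf2 and Celf6, with at least 0.984. Length alone does not show that 2 exons correspond, and this was not tested. Exons of the same length were not always spliced alike: the 63-nt exon of Celf5 had a PSI of 0.975 and 1.00 in the cortex libraries, and the 63-nt exon of Celf6 had 0.0048 and 0.013. At its event with the most reads, the 80-nt exon of Celf2 had 0.858 and 0.844 in cortex, against 1.00 and 0.997 for that of Celf6.

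Among tissues, 17 Celf events of 14 exons had enough reads in 2 or more tissues and enough of both forms for a test. The quasi-binomial test called 4 events (adjusted p under 0.05 and a range of mean PSI of at least 0.1), against 11.9% of all events. The 4 events were the 152-nt exon of Celf1 with 2 different upstream exons, and the 144-nt and 80-nt exons of Celf2. The organs came from 2 animals, but no source used here ties a replicate number to an animal, so that values from a fit with the replicate number as a block are given too. With that block 1 of the 4 events was called, the 144-nt exon of Celf2. The blocked fit shared less information on spread between events, with prior degrees of freedom of 1.47 against at least 76.9 without the block. The part of this in the lost calls was not tested. The other tested exons had PSI ranges of 0.067 or less.

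**Figure D3:**
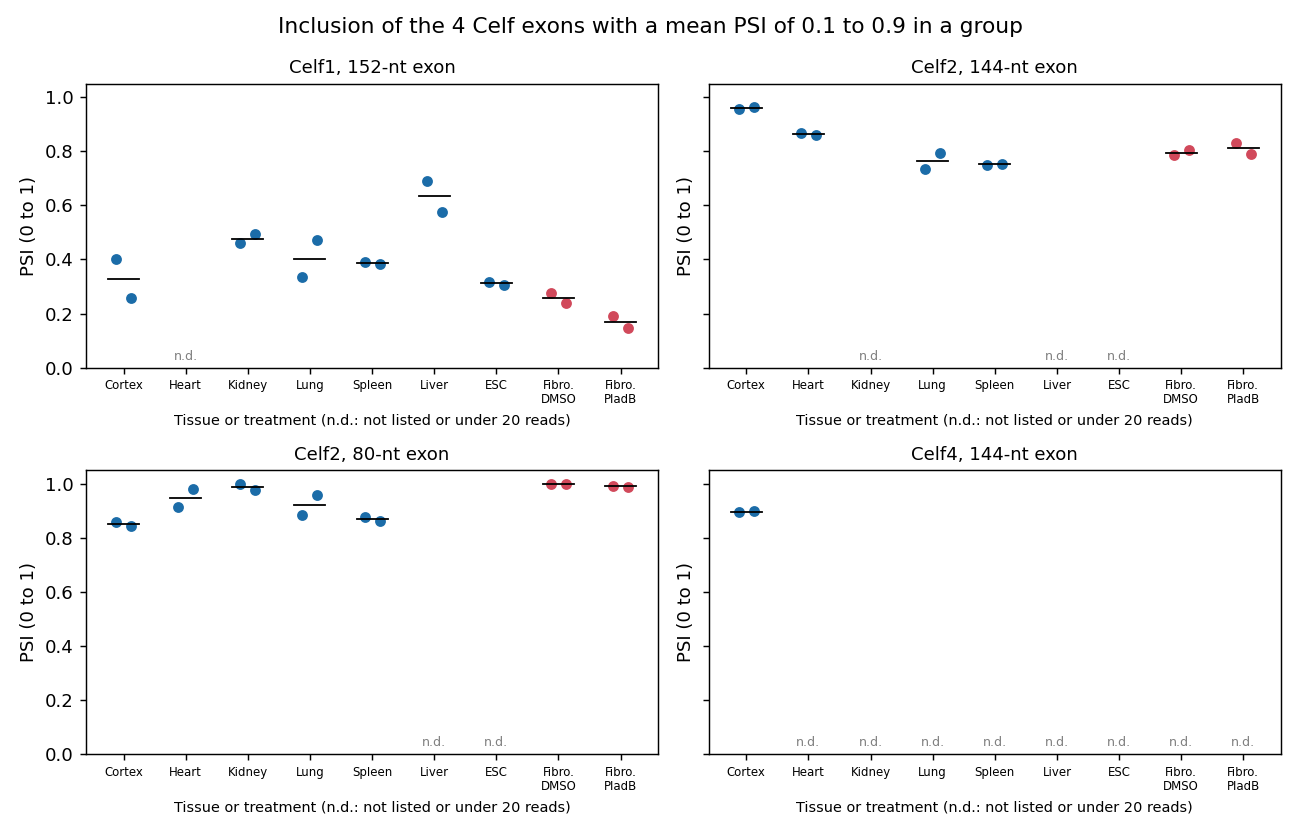
PSI (0 to 1) per library of the 4 Celf exons with a mean PSI between 0.1 and 0.9 in a group; points are replicates, bars their mean, blue tissues and red fibroblasts. The 152-nt exon of Celf1 is highest in liver, and the 144-nt exon of Celf2 is highest in cortex.

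The 152-nt exon of Celf1 (mm10, plus strand, chr2:90987665-90987816, 59.9% along the gene from its 5′ end) had the widest range. Its PSI was 0.689 and 0.577 in liver, 0.459 and 0.493 in kidney, 0.333 and 0.472 in lung, 0.391 and 0.385 in spleen, 0.402 and 0.256 in cortex, and 0.318 and 0.307 in ESC. The liver libraries, which came from an earlier study, lay above all others, and lung and cortex replicates were 0.14 and 0.15 apart. The range of 0.32 passed the test (adjusted p = 8.77e-09), but not with the replicate number as a block (adjusted p = 0.12). Liver exceeded cortex (difference 0.30, adjusted p = 7.07e-08), ESC (0.32, 1.06e-07), spleen (0.25, 0.0062) and lung (0.23, 0.040), and kidney exceeded cortex (0.15, 3.05e-04) and ESC (0.16, 3.39e-04). Liver against kidney (0.16) did not pass (adjusted p = 0.14). This event was not listed in heart. Reads over the downstream junction of the exon outnumbered those over the junction with its listed upstream exon in every library read, for example 137 against 58 and 161 against 52 in liver. The share of inclusion from the upstream junction alone was 0.569 and 0.40 in liver, 0.319 and 0.334 in kidney, 0.233 and 0.309 in lung, 0.245 and 0.260 in spleen, and 0.255 and 0.245 in ESC. Cortex is missing here, because the event that gives the upstream junction was not listed in cortex. These are descriptions, added after the PSI values were seen, and among the tissues read in this way the liver libraries were again the highest.

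The same 152-nt exon was listed with the rare 53-nt exon (chr2:90954289-90954341) as its upstream neighbour. Both listings count the same reads over the downstream junction of the exon, so that the PSI of the second listing is not its inclusion after the 53-nt exon, and the listings are not independent measurements. In the first ESC library, 157 of the 158 inclusion reads of the second listing could be reads of that shared junction. The range of the second listing, 0.30, was near the threshold (adjusted p = 0.039), and was lost with the block (adjusted p = 0.15) and when 1 library was left out in 8 of 14 cases (adjusted p up to 0.21).

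The 53-nt exon itself had a mean PSI between 0.0441 in cortex and 0.0809 in heart at the event with the most reads, which shares its skipping reads with the 152-nt exon. At its other event the tissue means lay between 0.0673 in lung and 0.134 in spleen (adjusted p = 0.99 among tissues).

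The 144-nt exon of Celf2 (mm10, minus strand, chr2:6549832-6549975) was most included in cortex. Its PSI was 0.956 and 0.965 in cortex, 0.868 and 0.861 in heart, 0.733 and 0.792 in lung, and 0.748 and 0.754 in spleen, and no replicate of lung or spleen reached the heart values. The range of 0.21 had the smallest adjusted p of the Celf events (8.57e-25), and passed with the block (adjusted p = 0.0013). Cortex exceeded spleen (0.21, adjusted p = 4.27e-24) and lung (0.20, 4.85e-10), and heart exceeded spleen (0.11, 0.013). Cortex against heart, a pair sequenced with the same read length, differed by 0.097 (adjusted p = 1.20e-04), just under the limit of 0.1 for a call. Celf4 has a 144-nt exon on chromosome 18 with a PSI of 0.895 and 0.90 in cortex, the one tissue with enough reads. An 84-nt form of that exon, with the same flanking exons and the same skipping reads, had 0.928 and 0.932. Another 144-nt exon of Celf4 had 1.00 and 0.9996 in cortex.

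The 80-nt exon of Celf2 (mm10, minus strand, chr2:6607882-6607961) was instead least included in cortex. The means of heart, lung and spleen kept the order they had at the 144-nt exon. Its PSI was 0.858 and 0.844 in cortex, 0.879 and 0.861 in spleen, 0.884 and 0.959 in lung, 0.914 and 0.983 in heart, and 1.00 and 0.977 in kidney. Cortex lay below every replicate of the other tissues, by little in spleen. The range of 0.14 passed the test (adjusted p = 6.66e-04), but not with the block (adjusted p = 0.25). Of the pairs only cortex against kidney was called (0.14, adjusted p = 0.026). A second listing of this exon has a 64-nt exon in place of the 159-nt exon as one neighbour. Its PSI was 0.995 and 1.00 in cortex and 1.00 and 0.997 in spleen, and it was not tested. An 80-nt exon changes the reading frame when it is skipped if both flanks are coding, whereas a 144-nt exon does not.

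Among 9 genes with exons known to be regulated by CELF proteins, 18 of 43 tested exons were called among tissues (41.9%). Of the 18, 9 belonged to Mapt, the gene of the microtubule protein tau. Without Mapt it was 9 of 33 (27.3%). These counts cover every tested exon of the genes, whether or not CELF proteins are known to regulate it. In the Celf genes 3 of 14 were called (21.4%), and over all genes 11.8% of exons; these shares were not tested against each other. Some exons with a wide range are named here as examples. An 83-nt exon of Mfn2, which encodes the mitochondrial fusion protein mitofusin 2, had a mean PSI of 0.973 in heart and at most 0.116 in the other tissues. A 24-nt exon of Mef2a, a muscle and neuron transcription factor, had 0.879 in cortex and 0.752 in heart and at most 0.133 elsewhere. A 54-nt exon of App, the amyloid precursor protein, had 0.979 in cortex and 0.902 in ESC and 0.399 in spleen. Tnnt2 had a 30-nt exon at 0.916 in cortex and 0.010 in heart, and Mapt a 711-nt exon at 0.014 in cortex and 0.986 in heart.

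Of 11 antagonists and co-regulators of CELF proteins (Mbnl, Ptbp, Rbfox and Nova genes and Hnrnph1), 6 were higher in cortex than in every other tissue, among them Rbfox1 and Rbfox3, splicing factors of neurons, against 19.4% of all genes. Of the genes with regulated exons 5 of 12 were, of the kinases and cyclins that act on Celf1 2 of 5, and of its decay and translation targets and partners 0 of 7. List members that met the filter only through the cortex libraries were not set apart, so that these counts are not support. The antagonist Mbnl1 had its highest tissue level in spleen (mean 153 TPM) and 57 TPM in cortex, while its paralog Mbnl2 was highest in cortex (171 TPM).

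The hybrids allow the 2 alleles of an exon to be compared within one cell, from reads that cover a strain variant. In the tissues 44 combinations of a Celf event and a tissue had at least 20 reads from each allele and replicate, 22 could be tested and 0 were called, against 5.13% of all events in kidney, 4.7% in cortex, 4.6% in lung, 4.17% in heart, 3.72% in liver, 3.49% in spleen and 1.14% in ESC. Of the 22, 3 had an unadjusted p under 0.05. In fibroblasts 13 combinations had reads, 3 were tested and 0 were called, against 4.74% with DMSO and 4.2% with PladB, with 1 unadjusted p under 0.05. The largest difference was 0.105.

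That difference belonged to a 186-nt exon of Celf1 (mm10, plus strand, chr2:91010393-91010578), which could be read on both alleles in all 9 groups. In ESC the PSI was 0.936 and 0.888 on the C57BL/6J allele and 0.815 and 0.80 on the SPRET/EiJ allele. In kidney it was 0.905 and 0.922 against 0.807 and 0.829, and in cortex 0.916 and 0.908 against 0.865 and 0.847. The replicates of the alleles did not overlap in these or in 3 further groups, and the mean was higher on the C57BL/6J allele in 9 of 9 groups, by 0.0040 to 0.105.

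No tissue passed on its own, with adjusted p between 0.085 and 0.58. One allele effect common to the 7 tissues, a fit added after these values were seen, gave a mean difference of 0.070 (adjusted p = 3.72e-05), in a fit that gave such an effect for 23.9% of all events. The common effect in fibroblasts was 0.028 (adjusted p = 0.29), where 22.4% of events had one. A change of the effect among tissues was not detected (interaction, adjusted p = 1.0), as for all but 0.0471% of events. From all reads the exon had a mean PSI of 0.922 to 0.972 in the tissues. The allelic reads, the subset over a strain variant, gave means of 0.870 to 0.967 on the C57BL/6J allele and 0.807 to 0.915 on the SPRET/EiJ allele over the 9 groups.

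**Figure D4:**
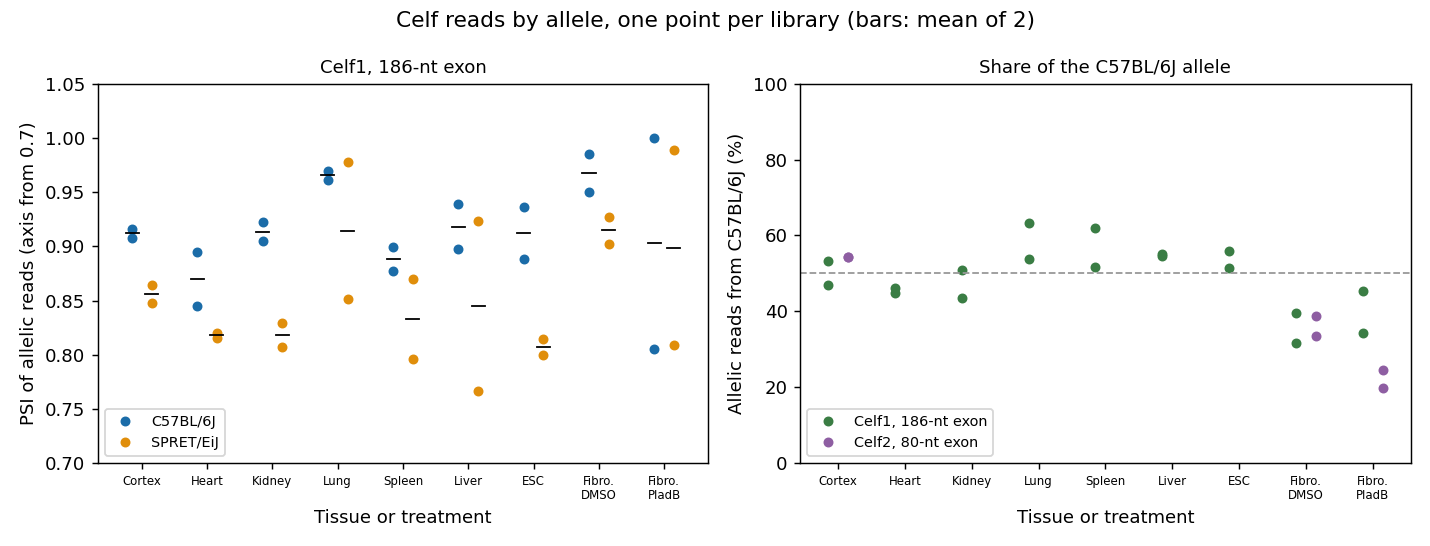
Left, PSI of the 186-nt exon of Celf1 from reads of each allele, per library, on an axis that starts at 0.7 (bars, means); right, share of the C57BL/6J allele among allelic reads (%) for the 186-nt exon of Celf1 and the 80-nt exon of Celf2, with a dashed line at 50. The C57BL/6J mean is the higher in 9 of 9 groups on the left, and the fibroblast libraries lie below 50% on the right.

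The share of reads from each allele also gives a view of allelic expression, as a description without a test. In cortex the share from C57BL/6J, at the event of each gene with the most allelic reads, was 60.0% and 63.2% for Celf3, a 141-nt exon, and 94.4% of all genes had a lower share. Over the 4 Celf3 events with enough allelic reads the share ran from 55.6% to 72.0%. The other 5 members had between 44.1% (Celf2) and 55.9% (Celf5) in each cortex library, near the median of 50.3% over genes.

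In fibroblasts the 2 members with enough allelic reads, Celf1 and Celf2, leaned to SPRET/EiJ. At its event with the most allelic reads, Celf2 had 29.1% and 25.4% of reads from C57BL/6J with DMSO, at a 135-nt exon, and 19.0% and 13.8% with PladB, at a 159-nt exon, where the 5th percentiles over genes were 28.9% and 24.9%. Celf1 had 39.5% and 31.6% with DMSO and 45.3% and 34.2% with PladB. Its lean was less unusual, as 12.1% of genes with DMSO and 21.4% with PladB had a lower mean share. At the 80-nt exon of Celf2, the same exon in each group, the share was 54.3% and 54.4% in cortex, 38.7% and 33.4% in DMSO-treated and 24.6% and 19.7% in PladB-treated fibroblasts. The fibroblast libraries lay below the cortex libraries at this exon, and of the 8 Celf2 events read with DMSO it had the highest share. The other shares ran from 22.5% to 33.7%, except at a 197-nt exon, where 3 and 0 reads came from C57BL/6J against 157 and 142 from SPRET/EiJ.

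With PladB the TPM of each Celf gene that could be tested in fibroblasts was lower, although Celf2 was higher when libraries were centred on the median gene. Celf1 had 48.0 and 47.1 TPM with DMSO and 11.5 and 10.5 with PladB (log2 difference −2.11 ± 0.06 SE, 4.31-fold lower, adjusted p = 5.48e-06). Celf2 had 13.8 and 14.4 against 6.11 and 6.07 (−1.20 ± 0.06, 2.29-fold lower, adjusted p = 2.43e-05). Celf4 had 2.54 and 2.75 against 0.67 and 0.82 (−1.70 ± 0.15, 3.25-fold lower, adjusted p = 2.13e-04). The treated and control libraries did not overlap for any of the 3 genes. These were 3 of 3 genes tested, against 73.4% of all genes that fell and 15.6% that rose.

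The TPM of the median gene also fell by 1.15 on the log2 scale, so that relative to it Celf1 lay at −0.95, Celf4 at −0.55 and Celf2 at −0.04. With each library centred on its median expressed gene, a shift of −1.45, Celf1 was still lower (−0.66, adjusted p = 4.38e-04), Celf4 no longer passed (−0.25, adjusted p = 0.15) and Celf2 was higher (0.25, adjusted p = 0.015). On that scale 36.2% of genes were lower and 51.4% higher. Celf1 was the Celf gene lowered on both scales, and its share of the summed Celf TPM was 73.1% with DMSO and 60.6% with PladB, while that of Celf2 was 21.6% and 33.6%.

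**Figure D5:**
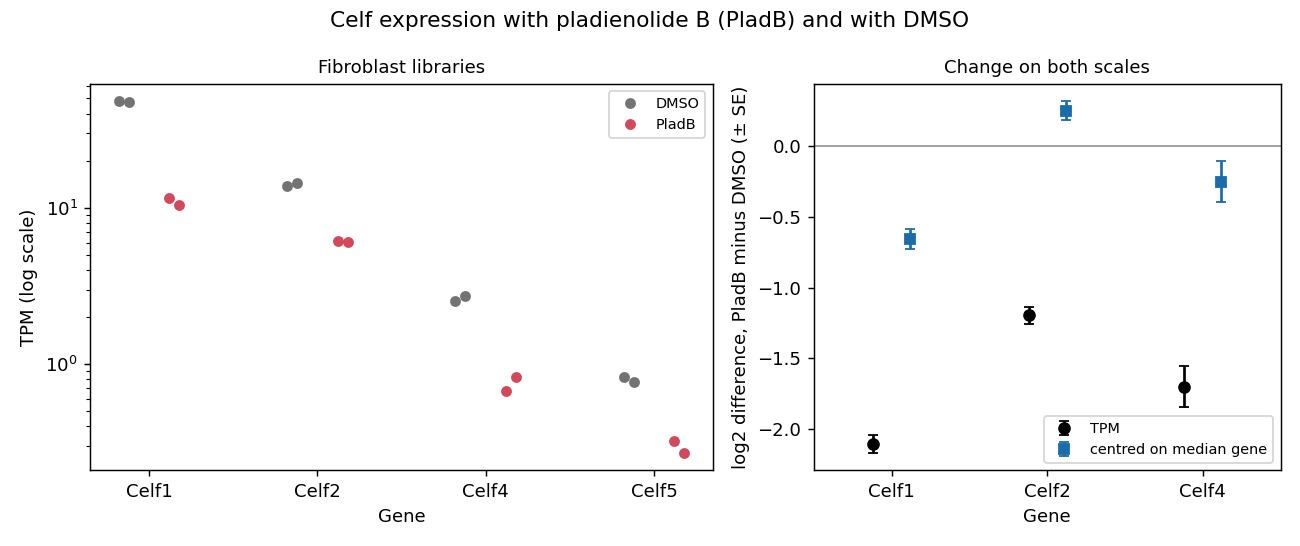
Left, TPM (log axis) of 4 Celf genes in fibroblast libraries with DMSO (grey) or PladB (red), 2 of each; right, log2 difference of PladB minus DMSO with its standard error, on the TPM scale (black) and with libraries centred on the median gene (blue). Celf1 lies below 0 on both scales, and Celf2 lies at −1.20 and at 0.25.

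Celf5, at 0.83 and 0.77 TPM with DMSO and 0.32 and 0.27 with PladB, was below the filter of 1 TPM and was not tested. Celf6 was at most 0.013 TPM in all 4 libraries, and Celf3 was listed at 0 in all 4.

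Among genes linked to CELF function, all 7 tested antagonists fell with PladB, as 73.4% of all genes did. Their median log2 difference of −0.91 lay above that of all genes, −1.15, with Mbnl2 at −2.54 and Mbnl1 at −0.91. Of 7 tested genes with regulated exons 5 fell and 1, App, rose (0.48). Of the 7 decay and translation targets and partners of Celf1, 3 fell and 3 rose: Junb, an immediate early transcription factor with GU-rich sequence in its mRNA, rose by 1.60 and Tnf by 4.43, while Jun fell by 1.52. The Tnf value started from a mean of 0.0070 TPM and depends on the pseudocount. Tnf met the filter of at least 1 TPM in 2 libraries only through the PladB libraries, so that its place among the genes that rose is not support. Of 5 kinases and cyclins 4 fell. With libraries centred on the median expressed gene, 2 of the 7 antagonists, 2 of the 7 genes with regulated exons, 1 of the 7 targets and partners (Jun, at −0.07) and 2 of the 5 kinases and cyclins lay below 0, values without a test.

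Exon inclusion in the Celf genes changed little with PladB. Of 30 events with reads, 12 were tested and 0 were called, against 14.4% of all events that were lower and 0.307% that were higher. The test found 5 with an unadjusted p under 0.05 and 1 with an adjusted p under 0.05. The last was the 152-nt exon of Celf1, with a PSI of 0.275 and 0.237 with DMSO and 0.189 and 0.145 with PladB. The groups did not overlap, but the difference of −0.089 (adjusted p = 0.046) is under the limit of 0.1, and the adjusted p rose to between 0.17 and 0.53 when any of the 4 libraries was left out and 0.15 with the block. The 144-nt exon of Celf2 had 0.786 and 0.804 against 0.830 and 0.791 and did not pass (adjusted p = 0.60). A second listing of that exon, with another neighbour on one side, had 1.00 and 1.00 with DMSO and 1.00 and 0.993 with PladB.

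Intron retention gave 1 call. An 88-nt intron of Celf1 (chr2:91013403-91013490) had a retained share of 0.321 and 0.585 with DMSO and 0.939 and 0.778 with PladB (difference 0.41, adjusted p = 0.0085), from 139 to 147 reads with DMSO and 51 to 59 with PladB. The share was higher in both treated libraries; over all introns tested, 36.9% were higher and 3.14% lower. The 3 other Celf introns tested, 2 of Celf2 and a longer intron of Celf1 with the same start, changed by 0.0185 or less and were not called.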

How the data were processed

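Reads were aligned by the authors (HISAT2 2.0.1, mm10 and a SPRET/EiJ genome), given to the allele whose genome was closer, and counted over junctions with rMATS on Ensembl annotation. The deposited tables hold junction counts of each skipped exon or retained intron, both replicates in one list and not normalized, beside the effective lengths of both forms, deposited as a score that rMATS wrote; the deposited TPM values were made by the authors from featureCounts counts. Columns of the authors' own comparisons (inclusion level differences, p-values and FDR) were not used, and no column was without a sample. Sample 1 of an allelic table was taken as C57BL/6J, in the order the study gives; reads of imprinted genes in the organs were in that order for most genes checked.

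PSI was computed from inclusion and skipping counts per effective length, with at least 20 reads in each replicate (and allele). Genes with at least 1 TPM in 2 libraries were tested with limma 3.58.1 (R 4.3.3) on log2(TPM + 0.1) with a mean trend, over all genes, tissues and fibroblasts apart. Fold changes are therefore on the log2(TPM + 0.1) scale and understate the change of low genes. PSI was tested on junction counts, with at least 5 reads of the rarer form, by a quasi-binomial logistic model whose dispersions, at least 1, were moderated by the squeezeVar method of limma towards a depth trend. Alleles were tested within each tissue, leaving out events whose allelic and total PSI differed by over 0.1. Benjamini-Hochberg adjustment ran over every feature of a test, with a threshold of 0.05. Both scripts were tested on simulated data. Depth for TPM is not known from the table.

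Named exons were all those with a mean PSI between 0.1 and 0.9 in a group, read through the event with the most reads; the genes most like each member were the 3 with the highest r. The members and lists were chosen with earlier results of these data known. Alternatives were another pseudocount, filters, read minimums, prior and fit, a replicate block, leaving out each library, and, chosen after seeing the data, centring on the median gene and one allele effect over groups. The organs came from 2 animals, but no source used here ties a replicate number to an animal. Deviations of same-numbered tissue libraries in TPM correlated with r between −0.037 and 0.173, over 0.1 in 4 of 21 pairs of tissues, so that pairing is not known; the blocked value stands beside each result it changed.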

Additional observations from a re-analysis of the deposited data

How the results depend on the processing

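Of the 6 counts that answer a comparison, 4 stayed within 1.5 times their value in every setting: Celf genes differing among tissues (5 to 6, Celf6 falling under the filter without a cortex library), Celf genes changed by PladB (2 to 4), and Celf events called between alleles in fibroblasts or with PladB (0). The count of Celf events differing among tissues was 1 with the replicate block in place of 4, with an adjusted p of 0.12 for the 152-nt exon of Celf1 and 0.25 for the 80-nt exon of Celf2; whether the replicate numbers pair the tissue libraries is not known. The count of Celf events differing between alleles in tissues was 1 in place of 0 with all tissues in one fit (the 186-nt exon of Celf1 in ESC, adjusted p = 0.019), between 0 and 1 when 1 library was left out of that fit, and 1 without the filter on agreement of allelic and total reads (a 197-nt exon of Celf2 in cortex).

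For single genes and exons, 3 values reversed: with libraries centred on the median gene, Celf2 with PladB was 0.25 and Celf1 in cortex minus ESC −0.28, and without the first PladB library the 144-nt exon of Celf2 changed by −0.0039 (from −0.0039 to 0.035 over the libraries left out). The causes were not tested. Of the other settings for single genes and exons, 729 kept the direction and the call, 28 lost it and 13 gained it. Depth limits the allelic values where reads are few (88 to 112 on SPRET/EiJ at the 186-nt exon in lung), and 2 replicates leave the spread roughly known.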
